A study of Mus musculus with 2 samples.

Results

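The 9 genes *Dnmt1*, *Dnmt3a*, *Dnmt3b*, *Uhrf1*, *Tet1*, *Tet2*, *Tet3*, *Mbd2* and *Mbd3*, which encode proteins that write, read or remove DNA methylation, were followed across the cell types of the embryonic mouse cortex. They were chosen by symbol from the 32285 genes listed for each library. Dissociated cells of the cerebral cortex of wild-type (WT) control embryos of an *Eomes-Cre* line were profiled at embryonic day (E) 16.5 by droplet-based single-cell RNA sequencing, in 2 libraries. Both libraries belong to the WT group, with no treated or mutant group, so every comparison lies between cell types or cell states of the same libraries. Whether a library holds 1 embryo or several, and whether a control embryo carries the Cre allele, are not given in the sources used here. P-values therefore set differences between types against how much these differences vary between the 2 libraries, a spread that may be technical.

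Methylation of cytosine in CpG dinucleotides is copied after DNA replication by DNMT1, which UHRF1 brings to the hemimethylated sites that replication leaves behind. DNMT3A and DNMT3B place methyl groups on sites that had none. The TET dioxygenases oxidize methylcytosine as the start of its removal, and methyl-CpG-binding domain proteins such as MBD2 bind methylated DNA, while MBD3 binds methylated CpGs poorly. MBD2 and MBD3 are alternative subunits of nucleosome remodeling and deacetylase complexes. In the developing cortex, DNMT1 and DNMT3A are known to act in progenitors and also in neurons that no longer divide.

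A total of 5966 cells of replicate 1 and 10247 cells of replicate 2 had 1500 to 60000 UMIs (unique molecular identifiers, one for each captured molecule) and under 10% mitochondrial UMIs. Their median depths were 5706 and 4938 UMIs. Cell types were gated by marker genes, which placed 67.5% and 63.3% of these cells in exactly 1 of 16 types. All markers of each gate were detected in its cells and higher there than in the other types, except 1 of 12 for CGE interneurons in both libraries, 1 of 6 for GABAergic progenitors in replicate 1 and 1 of 6 for erythroid cells in replicate 2. The gates were set on these same markers, so this is no independent check of the types. The samples are labelled cerebral cortex, yet cells with markers of striatal projection neurons made up 8.45% and 7.66% of the kept cells, and cells gated as GABAergic progenitors 3.59% and 2.99%. The libraries shared 21 barcode sequences among kept cells. Levels (CPM) are the UMIs of a gene for every 1000000 UMIs summed over the cells of a type in 1 library. Because the kit reads the 3' ends of transcripts, CPM values were compared between types and not between genes. A gene was called where the Benjamini-Hochberg adjusted p-value of edgeR's quasi-likelihood test across all genes tested was under 0.05, and fold changes are log2 values with their standard error (SE).

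The 9 genes differed in how well they were covered. *Dnmt3b* had only 132 UMIs in the kept cells of replicate 1 and 145 in those of replicate 2, and 2.16% and 1.38% of cells held any. *Uhrf1* followed with 637 and 992 UMIs, and *Mbd3* had the most, with 4820 and 7234. In GRCm38.p6, the mm10 build that the submitters' notes name, the writers lie on chromosomes 9 (*Dnmt1*, chr9:20907206-20959888), 12 (*Dnmt3a*, chr12:3801559-3914443) and 2 (*Dnmt3b*, chr2:153649411-153687730). *Uhrf1* lies on chromosome 17 (chr17:56303337-56323486). *Tet1* and *Mbd3* both lie on chromosome 10 (chr10:62804570-62887469 and chr10:80392539-80399531), *Tet2* on chromosome 3 (chr3:133463677-133545136), *Tet3* on chromosome 6 (chr6:83362373-83457208) and *Mbd2* on chromosome 18 (chr18:70568225-70629134). All are protein-coding genes.

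*Dnmt1*, the maintenance methyltransferase, had UMIs in all 14 types with at least 20 cells in each library, from 3 and 19 UMIs in microglia to 267 and 505 in upper-layer neurons. The part of free RNA in low levels, of *Dnmt1* and of the other genes, was not tested. Its level was 104 and 97.4 CPM (replicates 1 and 2) in GABAergic progenitors, 113 and 70.6 in *Olig*-positive glial progenitors, 70.0 and 57.7 in radial glia and 53.4 and 60.0 in intermediate progenitors. Among neurons, CGE interneurons had 62.3 and 55.0 CPM, upper-layer neurons 49.2 and 52.4 CPM, deep-layer neurons 47.2 and 54.8, MGE interneurons 48.5 and 45.7 and newborn excitatory neurons 44.0 and 41.2. In the order of the means only 2 of the 13 neighboring types did not overlap, namely *Olig*-positive progenitors above radial glia and MGE interneurons above newborn neurons. From radial glia down to MGE interneurons the library values of each type overlapped those of the next. Meningeal fibroblasts had the lowest mean, at 34.9 and 18.1 CPM (12 and 13 UMIs), and overlapped microglia (25.3 and 48.4 CPM).

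*Uhrf1*, which recruits DNMT1 to hemimethylated DNA, had a much wider range, with 49.98-fold between the highest and the lowest mean. It reached 87.1 and 91.2 CPM in *Olig*-positive progenitors, 94.5 and 74.1 in GABAergic progenitors, 61.7 and 53.7 in radial glia and 23.1 and 26.2 in intermediate progenitors. Newborn neurons had 1.499 and 2.07 CPM (8 and 12 UMIs), upper-layer neurons 0.922 and 3.01 (5 and 29 UMIs) and deep-layer neurons 2.64 and 6.25 (10 and 31 UMIs). The excitatory neurons thus held *Dnmt1* at 41.2 to 54.8 CPM, and *Uhrf1* at 5 to 31 UMIs in a library. CGE interneurons were the neurons with the highest *Uhrf1*, at 21.7 CPM in each library, and 19.5% and 21.4% of them held a UMI of the proliferation markers *Mki67* or *Top2a*, against 4.52% and 6.66% of upper-layer neurons.

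The de novo methyltransferase gene *Dnmt3a* was highest in microglia, at 160.1 and 125 CPM, and in radial glia, at 133 and 96.1 CPM, whose values overlapped. Pericytes (89.8 and 88.7 CPM), fibroblasts (84.3 and 87.6) and striatal projection neurons (82.2 and 80.3) followed, each without overlap with the next. Deep-layer and upper-layer neurons had 34.5 and 31.9 CPM and 34.3 and 31.4 CPM, and newborn neurons 25.9 and 24.7. The level was therefore high in radial glia, low in newborn neurons and intermediate in intermediate progenitors (45.6 and 36.2 CPM). Cajal-Retzius cells, too few to be tested with 16 and 32 cells, had 167 and 181 CPM from 17 and 57 UMIs. *Dnmt3b* was highest in endothelial cells, at 21.4 and 17.8 CPM, which rest on 6 and 11 UMIs. Endothelial cells were the only type of the 14 whose *Dnmt3b* values did not overlap those of the next. Elsewhere it lay between 0 and 8.56 CPM.

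The 3 erasers had different orders. *Tet1* was highest in radial glia, at 68.8 and 53.1 CPM, and lowest in microglia, at 16.9 and 7.65 CPM (2 and 3 UMIs), with upper-layer neurons at 33.7 and 35.0. Both ends overlapped the next type in the order of the means. *Tet2* ran the other way at the radial glia end, with its lowest mean of the 14 types there (25.3 and 29.1 CPM) and its highest in MGE interneurons (123 and 107 CPM). Both ends overlapped the next type, endothelial cells (28.5 and 34.0 CPM) and CGE interneurons (107 and 72.9 CPM). Cajal-Retzius cells, too few to be tested, had 29.4 and 9.55 CPM of *Tet2*, on 3 UMIs in each library. *Tet3* had its 4 highest means in the 4 GABAergic types, between 117 and 155 CPM in all their libraries, and these did not overlap the next type, intermediate progenitors (100.8 and 87.0 CPM). Of the microglia libraries, replicate 2 lay inside this range at 143 CPM and replicate 1 far below it at 42.1 CPM. The lowest mean of *Tet3* was in *Olig*-positive progenitors, at 39.2 and 47.1 CPM, which overlapped fibroblasts (32.0 and 59.8 CPM).

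Of the readers, *Mbd2* was highest in cells of the vessel wall and meninges, with 72.7 and 77.9 CPM in pericytes, 60.6 and 51.9 in endothelial cells and 66.9 and 41.7 in fibroblasts. *Olig*-positive progenitors (47.9 and 23.5 CPM) overlapped the fibroblasts. Microglia had the lowest mean of the 14 types, with 0 and 35.7 CPM (0 and 14 UMIs). Neurons, radial glia, intermediate progenitors and GABAergic progenitors lay between 15.3 and 37.8 CPM, with the lowest of their means in intermediate progenitors. *Mbd3* had the narrowest range of the 9 genes, with 1.98-fold between the highest and the lowest mean. It was highest in GABAergic progenitors (201 and 179 CPM), followed by intermediate progenitors (152 and 157) and radial glia (160.5 and 148).

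**Figure D1:**
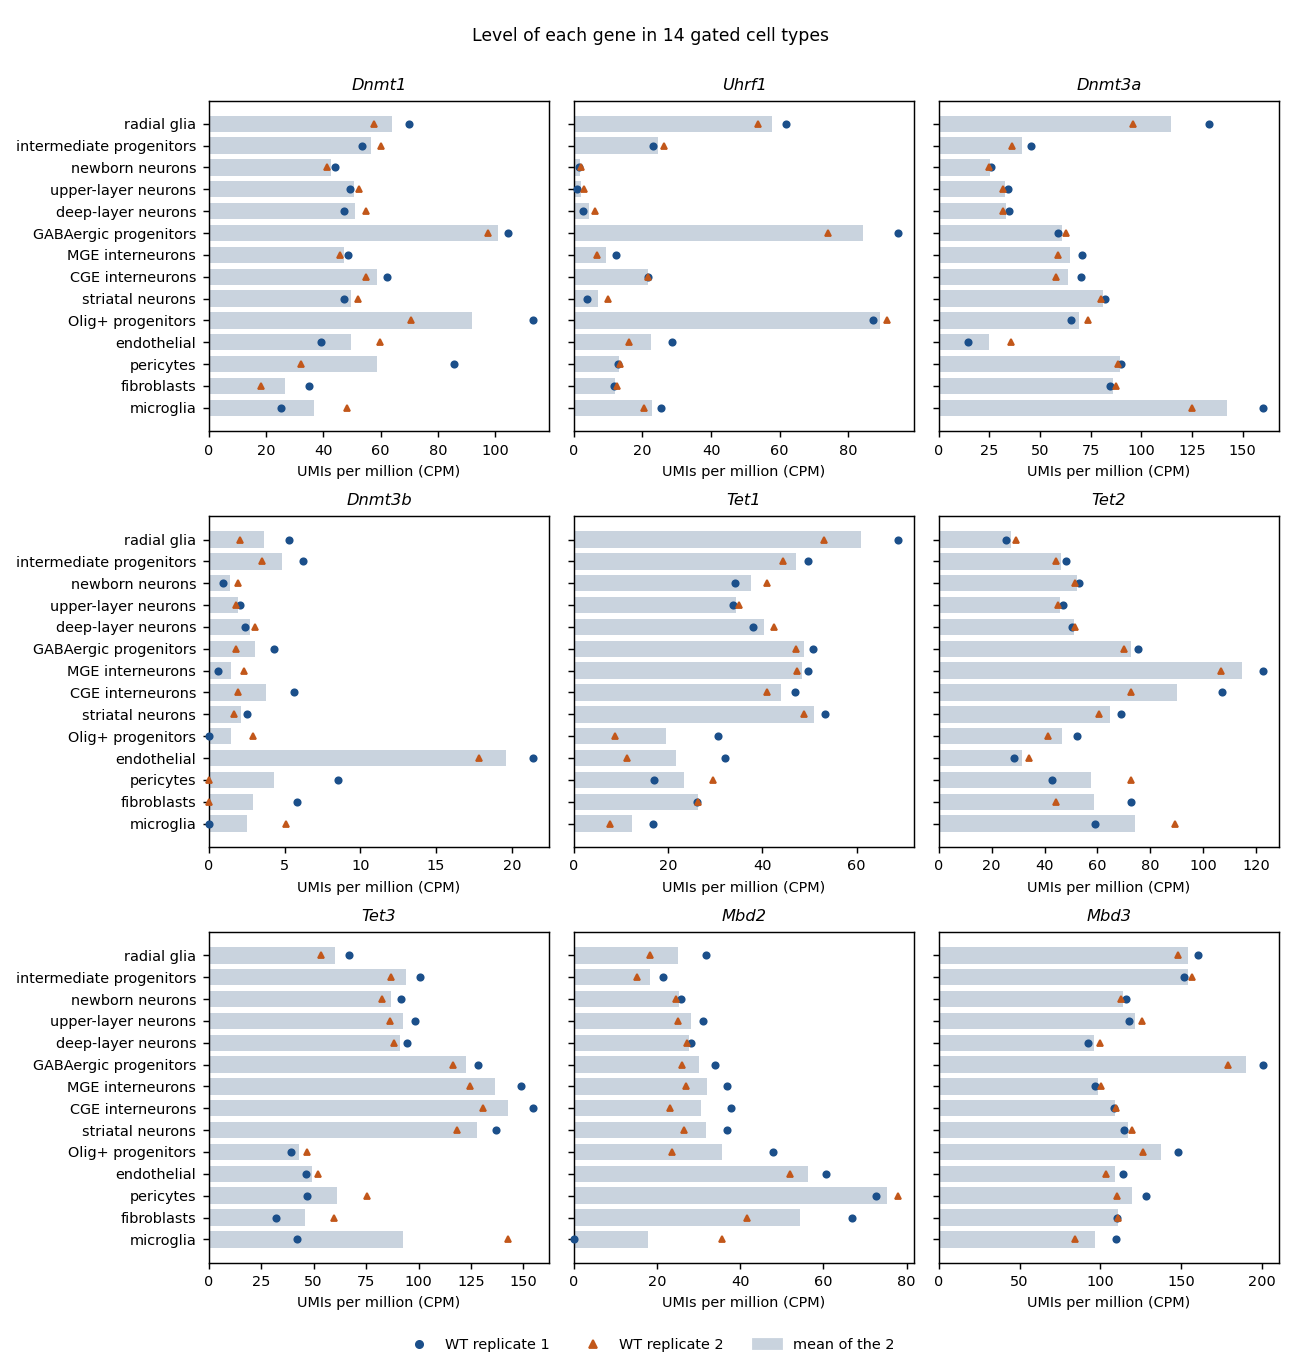
Level of each of the 9 genes (horizontal axis, CPM, each panel with its own scale) in the 14 gated types with at least 20 cells in each library, with circles for replicate 1, triangles for replicate 2 and bars for their mean. *Uhrf1* falls from 61.7 and 53.7 CPM in radial glia to under 7 CPM in excitatory neurons, while *Dnmt1* lies at 70.0 and 57.7 CPM in radial glia and between 41.2 and 54.8 CPM in excitatory neurons.

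Radial glia were compared with excitatory neurons, taken as the mean of upper-layer and deep-layer neurons, to ask how these genes differ between the stem cells of the cortex and the neurons they give rise to. All 9 genes were tested and 6 were called, 4 higher and 2 lower in radial glia. Among all 15004 genes tested, 57.1% were called in this comparison (28.8% higher and 28.3% lower), and their median log2 fold change was -0.05, against 0.41 over the 9 genes. *Uhrf1* was higher by 4.04 ± 0.24 (SE, adjusted p = 2.8e-16) and *Dnmt3a* by 1.69 ± 0.12 (5.2e-14). Both were thus several-fold higher in radial glia in each library. *Tet1* was higher by 0.60 ± 0.14 (adjusted p = 0.00052) and *Mbd3* by 0.41 ± 0.09 (0.00016). *Tet2* and *Tet3* were lower in radial glia, at -0.92 ± 0.16 (1.2e-05) and -0.71 ± 0.15 (0.00012). The other 2 writers were not called, *Dnmt1* at 0.21 ± 0.14 (adjusted p = 0.21), although its libraries did not overlap, and *Dnmt3b* at 0.52 ± 0.60 (0.48). The difference in *Tet1* rested partly on replicate 1, with log2 ratios of 0.94 and 0.46 in the 2 libraries, as did that in *Mbd3*, with 0.63 and 0.41. After every cell was thinned to 1500 UMIs, *Tet1* had -0.03 (adjusted p = 0.95) and *Mbd3* 0.31 (0.17), and neither was called.

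Radial glia and intermediate progenitors, the *Eomes*-expressing daughters of radial glia, differed in 4 of the 9 genes, against 34.2% of all genes tested. *Dnmt3a* was 1.41 ± 0.15 (adjusted p = 9.8e-10) and *Uhrf1* 1.14 ± 0.22 (6.8e-05) higher in radial glia. More radial glia (58.6% and 49.5%) than intermediate progenitors (21.6% and 27.5%) held a *Mki67* or *Top2a* UMI. The part of such cells in these differences was not tested. *Tet2* was lower at -0.83 ± 0.19 (0.00058) and *Tet3* at -0.72 ± 0.17 (0.00097). The fall of *Dnmt3a* and the rise of *Tet2* and *Tet3* therefore already separated the progenitor types, and both libraries showed each of these 4 directions. After thinning only the call of *Dnmt3a* held, while *Uhrf1* had 1.07 (adjusted p = 0.053), *Tet2* -0.68 (0.18) and *Tet3* -0.59 (0.13). *Dnmt1* (0.09 ± 0.17), *Mbd3* (-0.08 ± 0.10), *Tet1* (0.29 ± 0.16) and *Mbd2* (0.36 ± 0.24) did not pass the threshold (adjusted p = 0.74, 0.59, 0.17 and 0.27). *Tet1* was called without doublets (0.40, adjusted p = 0.044) and, with 1 more marker in every gate, so were *Tet1* (0.51, 0.03) and *Mbd2* (0.99, 0.0052).

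Excitatory neuron types were then compared with each other. Between newborn and upper-layer neurons none of the 9 genes was called by edgeR, against 9.74% of all genes, and 1 had an unadjusted p-value under 0.05. That gene was *Dnmt3a*, with 25.9 and 24.7 CPM against 34.3 and 31.4 and a log2 fold change of -0.39 ± 0.14 (unadjusted p = 0.011, adjusted p = 0.091). DESeq2 called none either. *Dnmt3a* was called with 1 more marker in every gate (-0.60, adjusted p = 0.014). With only the compared types in the fit, *Dnmt3a* (-0.38, adjusted p = 0.012) and *Dnmt1* (0.032, log2 fold change -0.27) were called. Between upper-layer and deep-layer neurons 11.8% of all genes were called and 1 of the 9, *Mbd3*, with 117 and 125 CPM against 92.0 and 99.8 (log2 fold change 0.39 ± 0.09, adjusted p = 0.0032). The call was lost after thinning (0.37, adjusted p = 0.19). *Dnmt1* and *Dnmt3a* had 0.04 ± 0.14 and 0.03 ± 0.14 in the same comparison. *Uhrf1*, at the low levels given above, had -0.999 ± 0.42 between upper-layer and deep-layer neurons (unadjusted p = 0.024, adjusted p = 0.14), with overlapping libraries. It was called lower in upper-layer neurons when a gate allowed no UMI of an excluded gene, that is of the genes of other types whose UMIs each gate limits (-1.65, adjusted p = 0.0097) and with only the compared types in the fit (-1.12, 0.044).

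Progenitors were next split by whether a cell held a UMI of *Mki67* or *Top2a*, which are expressed in dividing cells. Of the radial glia 58.6% and 49.5% were positive in the 2 libraries, of the intermediate progenitors 21.6% and 27.5% and of the GABAergic progenitors 58.4% and 63.4%. The split has limits that were measured. Between 4.12% and 10.3% of the newborn, upper-layer, deep-layer, MGE and striatal neurons also held such a UMI, and only 11.5% and 24.4% of the cortical progenitors with at least 3 S phase genes and at most 1 G2M gene did, so the negative group includes cells with S phase genes. The limit on G2M genes can itself lower that share, and cells with S phase genes outside this definition were not counted. Positive cells were also deeper, with median depths of 9609 and 5952 UMIs against 7188 and 4465 in radial glia and 11383 and 8830 against 8341 and 7132 in intermediate progenitors.

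*Dnmt1* and *Uhrf1* were called higher in the positive cells of all 3 progenitor types by edgeR, which called no other of the 9 genes there with the settings used throughout. Of all genes tested, 7.41% were called in radial glia (4.74% higher), 10.9% in intermediate progenitors (6.47% higher) and 15.0% in GABAergic progenitors (7.65% higher). In intermediate progenitors *Dnmt1* had 103 and 102 CPM in positive against 33.9 and 37.6 CPM in negative cells (1.498 ± 0.18, adjusted p = 7.3e-08). *Uhrf1* had 67.4 and 63.6 CPM against 5.66 and 6.54 CPM there (3.38 ± 0.33, 5.2e-10). Neither gene overlapped between the groups, and the *Uhrf1* level of negative intermediate progenitors was near that of deep-layer neurons.

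In radial glia *Dnmt1* had 85.3 and 72.4 CPM in positive against 39.9 and 39.8 CPM in negative cells (0.98 ± 0.24, adjusted p = 0.0071). *Uhrf1* had 88.0 and 77.9 CPM against 10.4 and 23.9 CPM (2.16 ± 0.34, 2.1e-05). Both genes were higher in positive cells of each library. In GABAergic progenitors *Dnmt1* had 124 and 120 CPM against 63.3 and 43.6 CPM (1.22 ± 0.22, 7.9e-05), and *Uhrf1* 121 and 88.0 CPM against 38.4 and 40.5 CPM (1.39 ± 0.29, 0.00056). After every cell was thinned to 1500 UMIs, the direction held in all 3 types and the calls held in intermediate progenitors. In radial glia *Dnmt1* then had 0.71 (adjusted p = 0.62) and *Uhrf1* 1.89 (0.056), and in GABAergic progenitors they had 1.05 (0.12) and 1.14 (0.25), so these calls were lost. With 1 more marker in every gate *Uhrf1* also lost its call in GABAergic progenitors (1.05, adjusted p = 0.096).

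**Figure D2:**
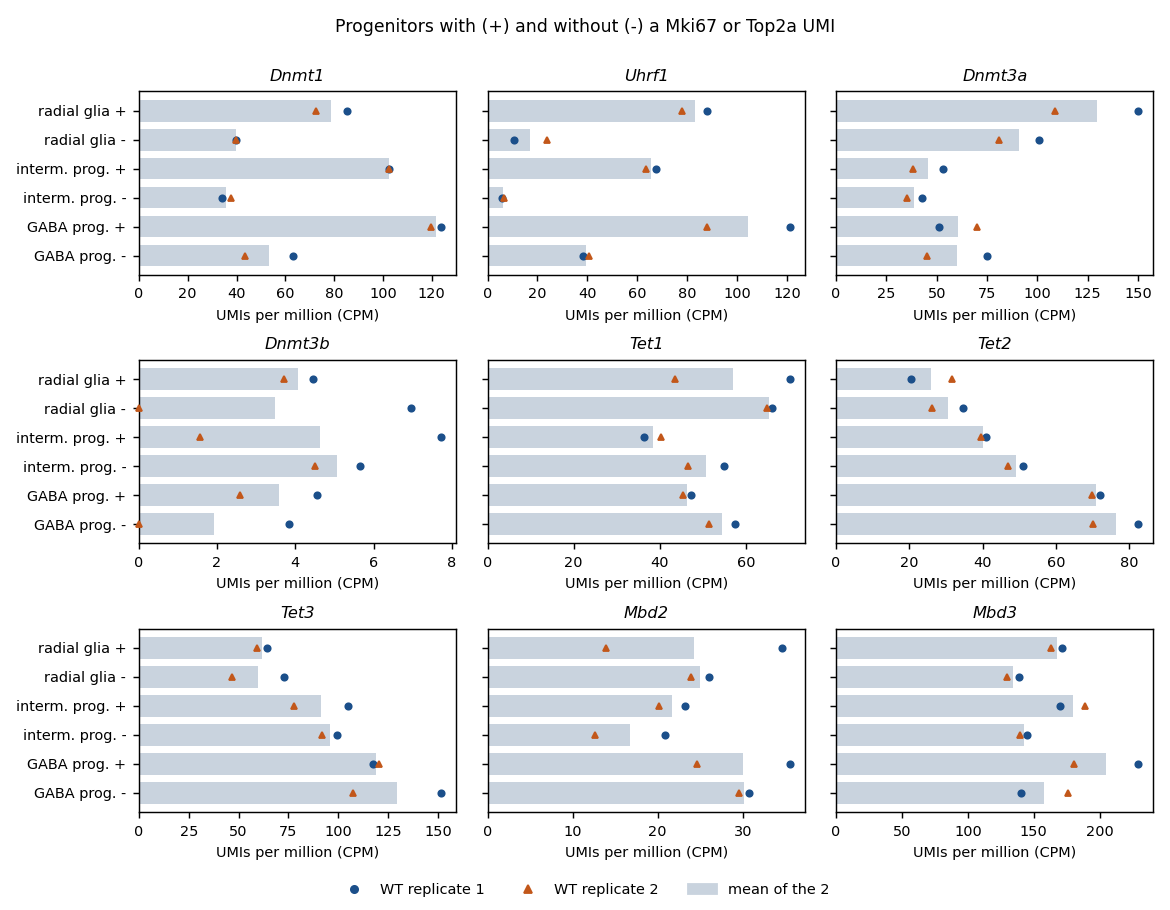
Level of the 9 genes (horizontal axis, CPM) in radial glia, intermediate progenitors and GABAergic progenitors with (+) and without (-) a *Mki67* or *Top2a* UMI, with circles for replicate 1, triangles for replicate 2 and bars for their mean. For *Dnmt1* and *Uhrf1* both libraries of each positive group lie above both libraries of its negative group.

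Of the other 7 genes, *Dnmt3a*, *Mbd3* and *Tet1* were called under some alternative settings. *Dnmt3a* had 150 and 109 CPM in positive and 101 and 80.7 CPM in negative radial glia (0.52 ± 0.19, unadjusted p = 0.0091, adjusted p = 0.093). It was called when positive cells needed at least 2 UMIs of the 2 markers (0.61, adjusted p = 0.041), and 2 other settings called it as well. *Mbd3* had log2 fold changes of 0.32 ± 0.14, 0.32 ± 0.12 and 0.36 ± 0.14 in radial glia, intermediate progenitors and GABAergic progenitors, with unadjusted p-values of 0.03, 0.0094 and 0.014 and adjusted p-values of 0.2, 0.075 and 0.08. In intermediate progenitors *Mbd3* was called by DESeq2 (0.33, adjusted p = 0.042), with at least 2 UMIs of the markers (0.48, 0.0068) and with only the compared types in the fit (0.39, 0.028), and in GABAergic progenitors with at least 2 UMIs (0.42, 0.04). The 3 *Tet* genes lay between -0.40 and 0.09 in the 3 types and *Mbd2* between -0.06 and 0.37. The lowest of these values was that of *Tet1* in intermediate progenitors, which without doublets was -0.80 and called (adjusted p = 0.019). Whether the split differed in size between radial glia and intermediate progenitors was tested by the interaction. None of the 9 genes was called by edgeR or DESeq2, against 0.168% of all genes, and 1 had an unadjusted p-value under 0.05, *Uhrf1*, with a difference of -1.22 ± 0.55 (unadjusted p = 0.034, adjusted p = 0.62).

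**Figure D3:**
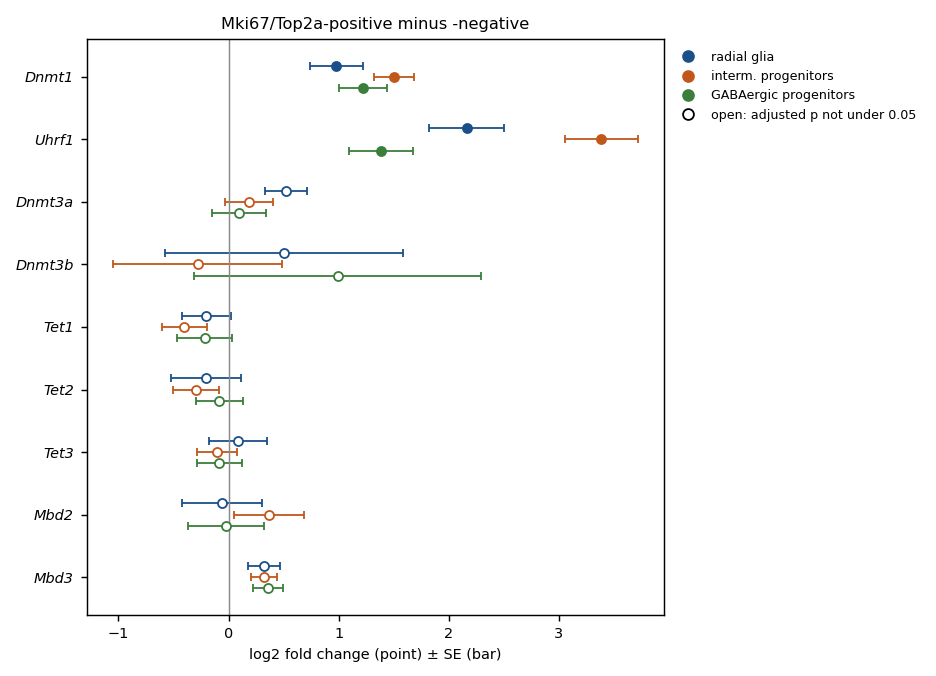
Log2 fold change (horizontal axis, points) with its SE (bars) of each gene between cells with and without a *Mki67* or *Top2a* UMI in 3 progenitor types, with filled points for an adjusted p-value under 0.05. Only *Dnmt1* (0.98 to 1.498) and *Uhrf1* (1.39 to 3.38) have filled points.

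Because *Dnmt1* and *Uhrf1* moved together in the *Mki67* or *Top2a* split, the sequences around their start sites are shown. They did not move together in radial glia against excitatory neurons. RefSeq windows of 300 bases on GRCm38.p6, 250 before and 50 after an annotated start, were found for 8 of the 9 genes, 13 windows in all. Both strands were searched for the letters TTTCCCGC, TTTCGCGC, TTTGCCGC and TTTGGCGC, the core of the sites bound by E2F factors, which control genes of the G1 to S transition. Of the 13 windows, 2 held a match, 1 of *Dnmt1* and 1 of *Uhrf1*, against 2.26% of all 32851 windows. Each of the searched strings of letters contains a CpG, and most of the 13 windows were richer in CpG dinucleotides than the median window. The share of all windows is therefore no like background, and whether matches were enriched was not tested. The windows with a match are chr9:20952574-20952873 (minus strand, *Dnmt1*) and chr17:56304063-56304362 (plus strand, *Uhrf1*). They are printed 5′ to 3′ along the gene with the matches in capitals.
Dnmt1: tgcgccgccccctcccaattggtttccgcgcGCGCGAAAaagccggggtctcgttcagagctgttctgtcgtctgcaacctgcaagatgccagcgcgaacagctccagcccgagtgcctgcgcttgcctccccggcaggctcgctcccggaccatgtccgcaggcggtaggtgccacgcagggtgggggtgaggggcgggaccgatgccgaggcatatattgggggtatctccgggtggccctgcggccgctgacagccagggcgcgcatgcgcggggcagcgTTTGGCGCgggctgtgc
Uhrf1: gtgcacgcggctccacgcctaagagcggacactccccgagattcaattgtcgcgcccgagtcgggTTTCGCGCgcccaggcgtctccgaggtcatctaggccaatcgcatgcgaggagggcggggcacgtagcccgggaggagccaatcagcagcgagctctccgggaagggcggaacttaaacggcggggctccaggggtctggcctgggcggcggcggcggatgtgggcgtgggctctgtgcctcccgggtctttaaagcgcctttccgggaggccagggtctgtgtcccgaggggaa
The letters TTTCGCGC occurred in both, in *Dnmt1* on the opposite strand at position -219 from the start and in *Uhrf1* on the strand of the gene at position -185, and TTTGGCGC occurred in *Dnmt1* at position 33. A match describes the letters only, and no binding was measured. All but 1 of the 13 windows were richer in CpG dinucleotides than the median window, with 33 in each of these 2 against a median of 7, and the highest count was 57, in *Tet2*.

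Cortical progenitors were also sorted by phase genes, with S phase cells (104 and 131) holding at least 3 of 15 S phase genes and at most 1 of 12 G2M genes, G2M cells (27 and 55) the reverse, and cells of neither phase (151 and 250) at most 1 gene of each list. The other 247 of 529 and 347 of 783 cortical progenitors met none of these definitions and were left out. They held 84.4% and 72.9% of the *Uhrf1* UMIs and 70.7% and 62.3% of the *Dnmt1* UMIs of cortical progenitors, so the phase groups describe a minor part of the signal of both genes. None of the 9 genes is in these lists. None of the 8 that could be tested was called between S and G2M by edgeR, against 3.55% of all genes, and none had an unadjusted p-value under 0.05 or was called by DESeq2. *Dnmt1* had 47.5 and 56.2 CPM in S and 37.7 and 61.3 CPM in G2M cells (0.04 ± 0.33), and *Uhrf1* had 22.3 and 38.4 against 10.8 and 29.0 (0.56 ± 0.48). The errors are large, and *Uhrf1* rests on 2 and 9 UMIs in the G2M cells. In progenitors with neither set of genes *Dnmt1* had 26.4 and 33.7 CPM and *Uhrf1* 2.73 and 4.63 CPM. Both libraries of the S phase and of the G2M cells lay above both libraries of these cells for each gene, which was described and not tested.

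**Figure D4:**
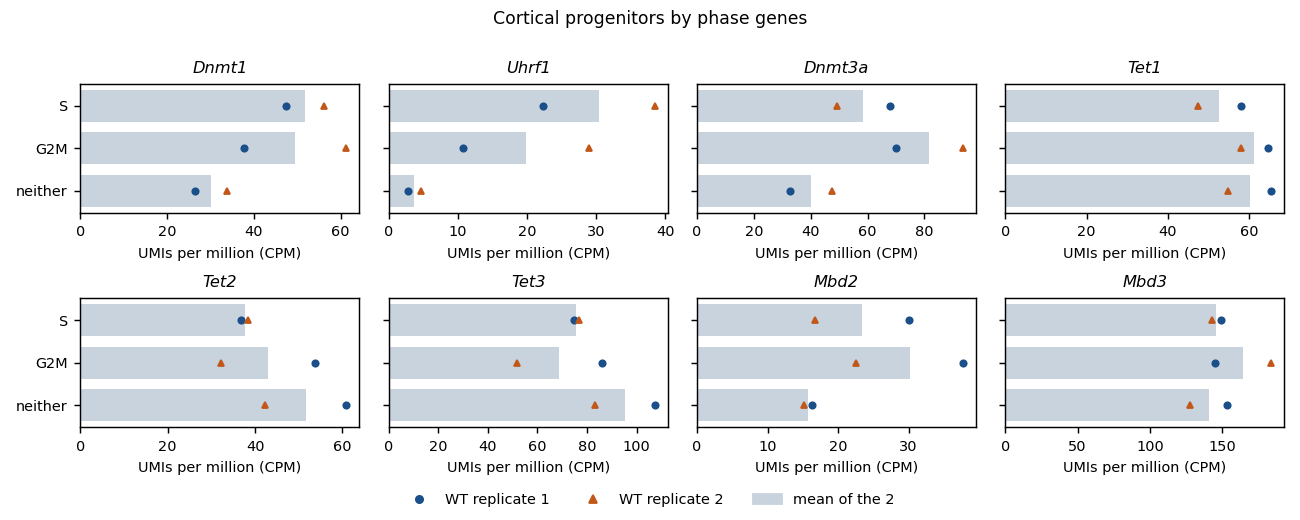
Level (horizontal axis, CPM) of 8 of the genes in cortical progenitors with S phase genes, with G2M genes or with neither, with circles for replicate 1, triangles for replicate 2 and bars for their mean. *Uhrf1* lies at 22.3 and 38.4 CPM in S phase cells and at 2.73 and 4.63 CPM in cells of neither phase.

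Radial glia and intermediate progenitors without a *Mki67* or *Top2a* UMI, which include cells with S phase genes, were then compared, as the mean of both types, with excitatory neurons. The neurons were not filtered in this way, and 4.52% and 6.66% of upper-layer and 5.98% and 10.3% of deep-layer neurons held such a UMI. The part of this in the differences was not tested. Of the 9 genes, 8 were called, 4 higher and 4 lower, against 49.7% of all genes (23.1% higher and 26.6% lower). *Dnmt1* was lower in these progenitors than in neurons, with a mean of 36.9 and 38.7 CPM against 48.2 and 53.6 CPM (-0.50 ± 0.14, adjusted p = 0.0026). Both types lay below the neurons, with 39.9 and 39.8 CPM in negative radial glia and 33.9 and 37.6 CPM in negative intermediate progenitors. *Dnmt3a* was higher at 0.77 ± 0.13 (5e-06), *Uhrf1* at 1.63 ± 0.34 (0.00014), *Tet1* at 0.56 ± 0.12 (0.00032) and *Mbd3* at 0.28 ± 0.08 (0.0055). *Tet2* (-0.41 ± 0.14, adjusted p = 0.017), *Tet3* (-0.37 ± 0.13, 0.019) and *Mbd2* (-0.52 ± 0.18, 0.019) were lower. The mean joins types with different levels, and the types were not tested one by one against neurons. *Dnmt3a* had 100.7 and 80.7 CPM in negative radial glia but 42.6 and 35.2 CPM in negative intermediate progenitors, against 34.4 and 31.6 CPM in neurons. *Tet2* had 34.7 and 26.2 CPM in negative radial glia, while negative intermediate progenitors, with 50.9 and 47.0 CPM, overlapped the neurons (48.6 and 48.3 CPM). The same held for *Tet3*, with 73.0 and 46.6 CPM in negative radial glia and 99.2 and 92.0 CPM in negative intermediate progenitors against 96.5 and 87.3 CPM in neurons. Lower *Tet2* and *Tet3* levels were thus seen in the radial glia of this group and not in its intermediate progenitors. After thinning 4 calls were lost. *Dnmt1* (-0.45, adjusted p = 0.13), *Tet2* (-0.43, 0.21) and *Mbd3* (0.28, 0.19) had values near those above, and *Tet1* fell to 0.02 (0.97). The call of *Tet2* was also lost with no UMI of an excluded gene (-0.25, adjusted p = 0.18), that of *Mbd3* without the filter on low counts (0.22, 0.097), and that of *Mbd2* without the library as a block (-0.51, 0.052) and under 5% mitochondrial UMIs (-0.41, 0.061). The log2 ratio of replicate 1 was smaller for *Tet2* (-0.21) and *Tet3* (-0.18) and larger for *Mbd3* (0.45) than these values.

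MGE interneurons, which come from the medial ganglionic eminence and include the somatostatin cells, differed from excitatory neurons in 4 of the 9 genes, all higher, against 14.1% of all genes called higher and 27.0% called in either direction. *Tet2* had 123 and 107 CPM against 48.6 and 48.3 CPM (1.20 ± 0.11, adjusted p = 1.8e-10), the largest difference among the erasers. *Tet3* had 149 and 124 CPM against 96.5 and 87.3 (0.53 ± 0.12, 0.0012). The oxidase genes *Tet2* and *Tet3* were thus both higher in interneurons, where radial glia had them lower. *Dnmt3a* had 70.7 and 58.7 CPM against 34.4 and 31.6 (0.92 ± 0.13, 1.3e-06). *Uhrf1* was called at 1.42 ± 0.39 (0.0051), but its log2 ratios of 2.98 and 0.62 in the 2 libraries differ and rest on 21 and 17 UMIs in the interneurons, and the call was lost after thinning (1.39, adjusted p = 0.14). *Dnmt1* had 48.5 and 45.7 CPM against 48.2 and 53.6 CPM (-0.16 ± 0.15, adjusted p = 0.48), with overlapping libraries, but was called lower after thinning (-0.78, 0.0063). *Tet1* (0.34 ± 0.14, adjusted p = 0.083) was called with no UMI of an excluded gene (0.39, 0.047) and with only the compared types in the fit (0.34, 0.031).

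Of the 9 genes, only *Uhrf1* was called between MGE and CGE interneurons, against 9.88% of all genes, with 12.3 and 6.65 CPM against 21.7 in each CGE library (-1.29 ± 0.36, adjusted p = 0.016, log2 ratios of -0.82 and -1.71). Cells with a *Mki67* or *Top2a* UMI moved with this difference, at 6.67% and 9.71% of MGE against 19.5% and 21.4% of CGE interneurons, and their part in it was not tested. The call was lost with DESeq2 (-1.19, adjusted p = 0.098), with 1 more marker in every gate (-1.17, 0.15), under 5% mitochondrial UMIs (-0.66, 0.55) and after thinning (-1.23, 0.29). *Tet2* had 0.36 ± 0.14 (unadjusted p = 0.016, adjusted p = 0.12; called after thinning at 0.73, with no UMI of an excluded gene at 0.48 and with only the compared types in the fit at 0.36, adjusted p = 0.013, 0.027 and 0.019) and *Dnmt3a* 0.00 ± 0.16. MGE interneurons with and without an *Sst* UMI (89 and 100 against 316 and 477 cells) had no called gene among the 8 tested by edgeR, nor by DESeq2, against 1.39% of all genes, and 2 had an unadjusted p-value under 0.05. *Dnmt3a* had 101 and 74.8 CPM in *Sst*-positive against 61.5 and 54.9 CPM in *Sst*-negative cells (0.59 ± 0.22, unadjusted p = 0.017, adjusted p = 0.3). *Uhrf1* had 0 and 2 UMIs in *Sst*-positive cells (0 and 4.16 CPM) against 15.9 and 7.22 CPM (unadjusted p = 0.035, adjusted p = 0.41). At this depth 3 UMIs would be 7.61 CPM in the first of these *Sst*-positive libraries. *Dnmt1* had 38.1 and 54.0 against 51.6 and 43.8 CPM (-0.01 ± 0.28).

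Microglia and macrophages, the immune cells of the brain, were compared with the mean of 5 neuron types. Of the 9 genes, 3 were called, against 37.1% of all genes, whose median log2 fold change was -0.44. *Dnmt3a* was higher at 1.54 ± 0.22 (adjusted p = 5.4e-07), with 160.1 and 125 CPM against 58.3 and 52.0. *Tet1* was lower at -1.98 ± 0.53 (0.0028), with 16.9 and 7.65 CPM against 44.3 and 42.9, on only 2 and 3 UMIs in the microglia. *Uhrf1* was higher at 1.77 ± 0.66 (0.031), on 3 and 8 UMIs in the microglia, of which 4.35% and 25.0% of cells held a *Mki67* or *Top2a* UMI. After thinning only *Dnmt3a* was called, *Tet1* had -0.98 (adjusted p = 0.4), and *Uhrf1* had 0 UMIs in the microglia of both libraries, so that its direction could not be read. These values come from 23 and 64 cells, and *Tet3* shows how far 2 such libraries can differ, with 42.1 and 143 CPM.

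Endothelial cells differed from the same neurons in 7 of the 9 genes, against 45.7% of all genes (21.5% higher and 24.1% lower) with a median log2 fold change of -0.28. Higher were *Dnmt3b* (3.13 ± 0.60, adjusted p = 4.6e-05), *Uhrf1* (1.60 ± 0.51, 0.0099) and *Mbd2* (0.99 ± 0.27, 0.0024). All 3 *Tet* genes were lower, *Tet1* at -1.20 ± 0.34 (0.0036), *Tet2* at -1.01 ± 0.26 (0.0014) and *Tet3* at -1.12 ± 0.24 (0.00023). *Dnmt3a* was lower at -0.75 ± 0.28 (0.025), with 14.3 and 35.7 CPM against 58.3 and 52.0. The genes of the 2 de novo enzymes thus went in opposite directions, on only 6 and 11 UMIs of *Dnmt3b* and 4 and 22 of *Dnmt3a*. Of these 27 and 73 cells, 33.3% and 24.7% held a *Mki67* or *Top2a* UMI. The size differed between the libraries for *Dnmt3a*, with log2 ratios of -1.93 and -0.45, for *Tet1*, with -0.44 and -1.91, and for *Uhrf1*, with 2.58 and 1.07, and without doublets *Uhrf1* lost its call (1.02, adjusted p = 0.22). After thinning *Dnmt3b* was too low to be tested and only *Uhrf1* was called (2.89, adjusted p = 0.0023). The *Tet* genes then had -1.88, -1.14 and -1.001 (adjusted p = 0.09, 0.16 and 0.076), *Dnmt3a* had -1.04 (0.27) and *Mbd2* turned to -0.21 (0.89). *Dnmt1* was called neither in endothelial cells (0.11 ± 0.25, adjusted p = 0.74) nor in microglia (-0.12 ± 0.35, 0.82).

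**Figure D5:**
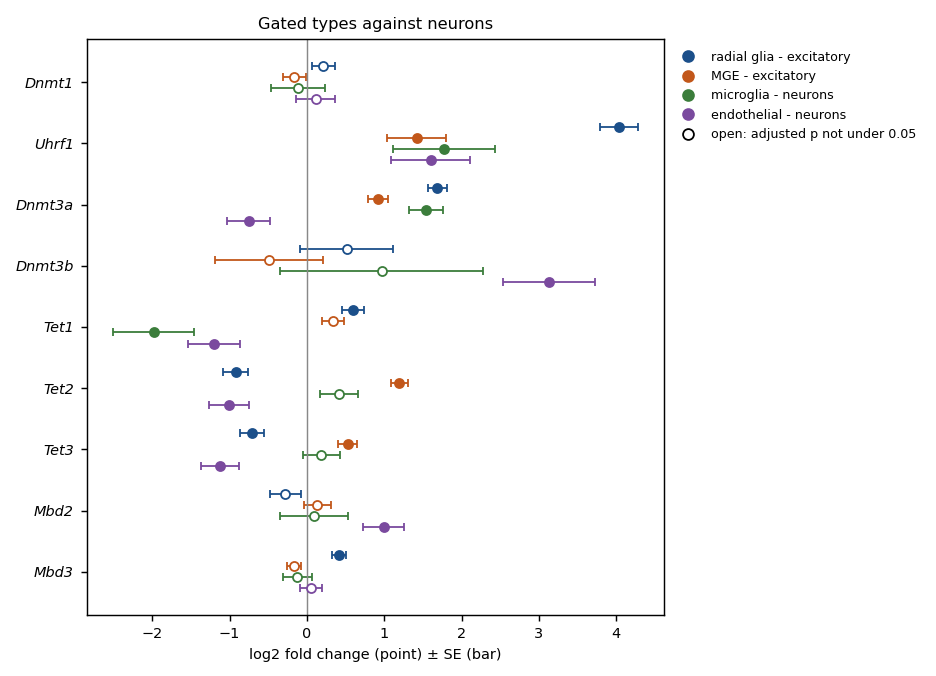
Log2 fold change (horizontal axis, points) with its SE (bars) of each gene in radial glia and MGE interneurons against excitatory neurons, and in microglia and endothelial cells against 5 neuron types, with filled points for an adjusted p-value under 0.05. *Tet2* is filled on the right for MGE interneurons (1.20) and on the left for radial glia (-0.92) and endothelial cells (-1.01), and *Dnmt1* has no filled point.

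Of 24 further genes of DNA methylation, its readers and its removal, 23 could be tested across types, all but *Dnmt3l*. Between radial glia and excitatory neurons 13 of the 23 were called, 8 higher and 5 lower, which is near the 57.1% called among all genes. *Cdca7* and *Hells*, which encode the 2 parts of a nucleosome remodeler needed for DNA methylation, were higher by 3.56 ± 0.18 and 3.27 ± 0.17. The uracil glycosylase gene *Ung* was higher by 2.79 ± 0.32, and *Zbtb38*, which encodes a zinc finger protein that binds methylated DNA, was lower at -2.66 ± 0.21. Between radial glia and intermediate progenitors 11 of the 23 were called, 4 higher and 7 lower, against 34.2% of all genes. *Zbtb38* had 12.3 and 12.8 CPM in radial glia against 101 and 105 CPM (-3.10 ± 0.21). *Cxxc4*, whose protein binds unmethylated CpGs, was higher by 2.07 ± 0.21. *Gadd45a* (-2.93 ± 0.69) and *Gadd45b* (2.69 ± 0.76), stress response genes linked to demethylation, went in opposite directions at low levels of under 10 CPM in every library, on 1 and 3 and on 12 and 7 UMIs in radial glia.

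Among the same 23 genes, 5 were called by the *Mki67* or *Top2a* split in radial glia (4 higher, against 7.41% of all genes in either direction), 9 in intermediate progenitors (6 higher, against 10.9%) and 8 in GABAergic progenitors (7 higher, against 15.0%). *Hells* was the gene shared by the named genes of all 3, at 1.12 ± 0.22, 2.27 ± 0.19 and 1.26 ± 0.20. In intermediate progenitors *Ung* (1.72 ± 0.39), *Mbd4* (1.22 ± 0.36), which encodes a thymine glycosylase, and *Cdca7* (1.03 ± 0.22) were higher too. In GABAergic progenitors *Mbd4* had 1.69 ± 0.50 and *Cdca7* 1.13 ± 0.17. After thinning *Hells* lost its call in radial glia (0.74, adjusted p = 0.36), as did *Cdca7* (0.80, 0.46) and *Mbd4* (1.34, 0.61) in intermediate progenitors and *Mbd4* in GABAergic progenitors (1.93, 0.22), and with 1 more marker in every gate *Ung* did in intermediate progenitors (1.17, 0.19). Between S and G2M phase 2 of 19 were called, against 3.55% of all genes. *Hells* had 108 and 155 CPM in S against 48.4 and 32.3 in G2M cells (1.79 ± 0.32, adjusted p = 0.0043), and its call was lost with DESeq2 (1.73, 0.06) and after thinning (1.96, 0.097). *Ung*, named after its values were seen, had 18.4 and 35.5 CPM against 0 and 3.23 (adjusted p = 0.038, without the library as a block 0.068). In negative progenitors against excitatory neurons 7 of the 23 were called, 4 higher and 3 lower, against 49.7% of all genes, with *Cdca7* at 2.62 ± 0.20, *Hells* at 1.98 ± 0.18, *Ung* at 1.95 ± 0.33 and *Cxxc5* at 1.73 ± 0.14.

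In MGE interneurons against excitatory neurons 10 of the 23 were called, 7 higher and 3 lower, against 27.0% of all genes, with *Cdca7* at 3.83 ± 0.17, *Cxxc4* at 1.90 ± 0.13, *Hells* at 1.26 ± 0.23 and *Zbtb38* at -1.21 ± 0.16. Between MGE and CGE interneurons 3 of the 23 were called, against 9.88% of all genes, and *Cxxc5* was lower in MGE interneurons at -1.56 ± 0.27. *Cxxc5* was also 1.11 ± 0.17 higher in newborn than in upper-layer neurons, where 2 were called, against 9.74%. Upper-layer and deep-layer neurons differed in 3 (11.8% of all genes), and *Sst*-positive and *Sst*-negative cells in 1 of the 18 tested (1.39%), none of these by an absolute log2 fold change of 1. Microglia differed from neurons in 7, against 37.1% of all genes, with *Gadd45b* at 3.15 ± 0.89, *Cxxc5* at 1.58 ± 0.39, *Zbtb4* at 1.46 ± 0.54 and the thymine glycosylase gene *Tdg* at -1.44 ± 0.33. The value of *Gadd45b* rests on 4 and 3 UMIs in the microglia, with log2 ratios of 4.07 and 2.48, and the other 3 genes on 4 to 13 UMIs in a library, and after thinning these 3 were not called (adjusted p = 0.21, 0.67 and 0.11). Endothelial cells differed in 10, against 45.7%, with *Gadd45b* at 2.42 ± 0.79, *Gadd45a* at 2.06 ± 0.72, *Ung* at 2.02 ± 0.56 and *Hells* at 1.36 ± 0.32. The first 3 of these rest on 2 to 9 UMIs in an endothelial library, and after thinning *Ung* had 1.10 (adjusted p = 0.7) and *Hells* 0.43 (0.75).

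The genes whose levels followed each of the 9 most closely were found by Pearson's r over the 14 types, with mean CPM values on the log2(CPM + 1) scale and 11309 genes compared for all but *Dnmt3b*. The types share their libraries, and these values describe likeness only. *Uhrf1* was most like *Ddx11* (r = 0.982), *Lig1* (0.976) and *Mcm2* (0.976). *Dnmt1* was most like *Smchd1* (0.956), *Srrt* (0.940) and *Suv39h2* (0.935). No other of the 9 genes was among the 3 nearest genes of either. *Dnmt3a* was most like *Sp3os* (0.883), *Mid1ip1* (0.882) and *Dock10* (0.853), and *Dnmt3b*, on few counts, like *Zmpste24* (0.897), *Erg* (0.870) and *Srarp* (0.869). *Tet1* was nearest to *Zfp672* (0.942), *Skida1* (0.938) and *Rrnad1* (0.938), and *Tet3* to genes that include *Ncoa6* (0.950) and *Marf1* (0.941). *Tet2* had no gene above 0.838, its value for *Gm45321*, followed by *Vav2* (0.836) and *Gm45341* (0.823). *Mbd2* was nearest to *Gnb4* (0.957), *Lama4* (0.952) and *Endod1* (0.951), and *Mbd3* to *Ssbp1* (0.906), *Snrpa* (0.901) and *Ranbp1* (0.896).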

How the data were processed

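Single-cell libraries (10x Genomics 3' v3.1) were processed by the authors with Cell Ranger (version 7.0.0 in the submitters' processing notes, 7.1.0 per the file headers, build mm10). The deposited values are raw UMI counts per gene and barcode after the authors' barcode filter, without normalization. Members and gene lists were chosen with earlier results of these data known. Cells were gated on marker UMIs, with limits on UMIs of genes of other types, and cells in more than 1 gate were left out (147 and 250). A type entered the fits with at least 20 cells in each library, and groups below this (Cajal-Retzius and erythroid cells, and *Olig*-positive cells once split) were not tested. Doublets were kept in the main analysis, and Scrublet (scanpy 1.11.5), whose automatic threshold marked 0 and 345 cells, gave an alternative with the 432 and 1111 highest-scoring cells removed. Depth was 46398156 and 64324236 UMIs.

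Sums of UMI counts per library and type entered the quasi-likelihood test of edgeR 4.0.16 in R 4.3.3, with genes of at least 10 counts in at least 2 sums, TMM factors, library as block, all types in 1 fit, Benjamini-Hochberg adjustment over all genes tested. Library numbers pair the sums because both sums of a number come from the same suspension of cells. DESeq2 1.42.0 was an alternative. SE is the fold change divided by the square root of F. Named were all 9 members, per comparison at most 4 of 24 pathway genes (called, absolute log2 fold change of at least 1, both libraries in the same direction, largest first), and 3 nearest genes per member among those with at least 20 CPM in a type, of which 1 is not reported here. Fits were also run on simulated sums in which all types shared a common mean profile apart from a set of changed genes. These data differ from that setting, so the run is no check of the results above.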

Additional observations from a re-analysis of the deposited data

How the results depend on the processing

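Of 40 called values of 1 of the 9 genes in a comparison, 15 kept their call and direction in every alternative that could be fitted. Of 390 alternative fits of the 40, 358 kept both, 29 lost the call and 3 changed direction, all 3 after thinning to 1500 UMIs: *Tet1* in radial glia against excitatory neurons (-0.029), *Uhrf1* in microglia (-4.70 with an SE of 4.28, a fitted value on 0 UMIs in the microglia of both libraries that gives no direction) and *Mbd2* in endothelial cells (-0.21). Thinning left the number of the 9 genes called at 1 between radial glia and intermediate progenitors, 1 in microglia, 1 in endothelial cells, 4 in *Mki67*- and *Top2a*-negative progenitors, and 0 between upper-layer and deep-layer neurons and in the split of radial glia and of GABAergic progenitors. With 1 more marker in every gate the number was 1 between newborn and upper-layer neurons, 0 between MGE and CGE interneurons and 1 in the split of GABAergic progenitors. With no UMI of an excluded gene it was 2 between upper-layer and deep-layer neurons and 2 between MGE and CGE interneurons, where it was 0 under 5% mitochondrial UMIs and 0 with DESeq2. With only the compared types in the fit it was 2 between newborn and upper-layer neurons, 2 between upper-layer and deep-layer neurons and 2 between MGE and CGE interneurons. The cause was not tested. The other 130 of 147 alternative counts stayed within 1.5 times. Without the replicate block 7 instead of 8 genes were called in the negative progenitors, and the count changed in no other comparison. Of 36 called values named for the further genes of DNA methylation, 24 kept their call and direction in every alternative that could be fitted. Of their 335 alternative fits 317 kept both, 18 lost the call, 10 of them after thinning, and 0 changed direction. Microglia without doublets, and the small vessel, glial and G2M groups under some stricter gates, held too few cells and gave no value. Depth limits *Dnmt3b* in all types, and the values of microglia, endothelial cells, pericytes, fibroblasts and *Olig*-positive progenitors, which had 23 to 76 cells in a library.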
